A study of Mus musculus with 6 samples.

Results

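Cytokine and growth factor receptors were examined as 40 genes named by symbol, all of which are listed among the 27198 genes of the deposited expression table. They comprise 5 receptor genes for colony-stimulating factors (CSFs), 20 for interleukins, 4 for interferons, 2 for tumor necrosis factor (TNF), 6 for transforming growth factor beta (TGF-beta) and bone morphogenetic proteins (BMPs), and 3 for angiopoietins, insulin and insulin-like growth factor. The RNA came from hematopoietic stem cells (HSCs) sorted from bone marrow of wild-type male C57BL/6 mice 8 to 10 weeks old. Mice of the l-FA group received ferulic acid, a plant phenolic acid, by intraperitoneal injection at 50 mg/kg daily for 30 days, and mice of the Ctrl group received the solvent. Each group had 3 libraries, and how many mice stand behind a library is not given in the sources used here, so that p-values measure the spread between these libraries, which may be technical. Gene positions are those of the deposited table, for which the processing notes name GRCm39. The comparison asked how long-term ferulic acid changed the RNA of HSCs.

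Receptors of these classes pass signals from soluble factors to the cell. Most interleukin, CSF and interferon receptors pair a ligand-binding chain with a shared signaling chain and act through JAK kinases and STAT factors, IL-1 family and TNF receptors act through adapter proteins toward NF-kappaB, TGF-beta and BMP receptors are serine/threonine kinases that phosphorylate SMAD proteins, and Tek, Igf1r and Insr are receptor tyrosine kinases. In HSCs, TGF-beta and the angiopoietin receptor TIE2 are known for their part in quiescence, while IL-1, interferons and CSFs are known to drive cells into division or toward myeloid fates.

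Library totals were close, at 19287735 to 20380610 counts in Ctrl and 19505689 to 20376031 in l-FA. Counts on the receptor genes summed to between 60351 and 64299 per Ctrl library and between 70693 and 76520 per l-FA library. The gate took lineage-negative cells with Sca1 and c-Kit but without CD34 and CD135, whose genes were nonetheless well represented. Flt3, the gene of CD135, reached 119 ± 0.144 FPKM (reads scaled by gene length and library total) in Ctrl and 197 ± 2.57 FPKM after l-FA (SD, n = 3), and Cd34 had 133 ± 1.13 and 165 ± 3.47 FPKM. Of 15 neutrophil and monocyte marker genes, 13 were lower and 1 higher in l-FA by the edgeR test used below, and their summed level went from 23745 to 24588 CPM (counts scaled to library size) in Ctrl to between 6157 and 6463 CPM in l-FA. Of 12 HSC markers, 8 were higher and 1 lower, with summed levels of 1990 to 2126 and 2314 to 2342 CPM. Over all genes tested, 25.5% were higher and 25% lower. No marker of these lists was at 0 in all libraries. In such bulk samples, fewer cells of a type and less RNA per cell cannot be told apart.

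Promoter windows of 5 receptor genes are shown, chosen after their values and motif matches were seen. They are the called CSF receptor genes with a window (Csf2ra, Csf3r and Csf2rb2), which moved in both directions, and the genes with the largest change among the TGF-beta and the interleukin receptors (Tgfbr2 and Il18r1). Each window holds the 250 bases before the most upstream RefSeq start in GRCm38.p6, written 5′ to 3′ on the strand of the gene. Capitals mark GAGGAA, the letters that PU.1 and other ETS factors bind, and TTCNNNGAA, the letters that STAT factors bind, each read on both strands.
Csf2ra, chr19:61228419-61228668, reverse strand: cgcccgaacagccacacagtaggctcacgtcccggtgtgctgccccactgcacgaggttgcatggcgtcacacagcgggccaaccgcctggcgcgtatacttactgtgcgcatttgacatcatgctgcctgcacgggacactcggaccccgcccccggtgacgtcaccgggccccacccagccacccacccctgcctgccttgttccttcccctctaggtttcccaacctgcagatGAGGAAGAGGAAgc
Csf3r, chr4:126024409-126024658, forward strand: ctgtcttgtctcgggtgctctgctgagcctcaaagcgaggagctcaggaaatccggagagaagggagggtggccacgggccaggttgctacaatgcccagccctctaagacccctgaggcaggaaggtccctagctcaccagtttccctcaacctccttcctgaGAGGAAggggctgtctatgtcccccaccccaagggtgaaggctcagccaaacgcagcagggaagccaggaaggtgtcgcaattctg
Csf2rb2, chr15:78305722-78305971, reverse strand: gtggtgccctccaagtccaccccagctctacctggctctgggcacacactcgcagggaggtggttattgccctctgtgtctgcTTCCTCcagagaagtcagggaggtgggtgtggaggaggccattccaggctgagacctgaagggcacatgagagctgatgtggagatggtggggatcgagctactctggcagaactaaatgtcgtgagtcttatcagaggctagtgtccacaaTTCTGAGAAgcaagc
Tgfbr2, chr9:116175364-116175613, reverse strand: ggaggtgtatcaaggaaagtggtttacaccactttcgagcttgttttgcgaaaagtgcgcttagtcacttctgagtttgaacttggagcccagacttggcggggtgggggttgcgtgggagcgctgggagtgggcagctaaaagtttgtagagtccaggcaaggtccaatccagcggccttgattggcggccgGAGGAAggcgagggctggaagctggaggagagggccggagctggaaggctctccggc
Il18r1, chr1:40465302-40465551, forward strand: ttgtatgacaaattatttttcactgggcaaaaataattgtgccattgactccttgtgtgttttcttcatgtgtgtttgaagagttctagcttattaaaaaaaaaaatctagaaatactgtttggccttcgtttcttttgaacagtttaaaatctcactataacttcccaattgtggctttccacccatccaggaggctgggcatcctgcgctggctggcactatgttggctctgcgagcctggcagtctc

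The letters GAGGAA stood in the windows of Csf2ra, Csf3r and Csf2rb2, which were the CSF receptor genes with a window, and in that of Tgfbr2, while Il18r1 held no searched motif. Over the 32 receptor windows, 9 held GAGGAA (28.1%), against 23.1% of 27025 windows of all genes. TTCNNNGAA stood in 4 receptor windows (12.5%), those of Csf2rb2, Ifnar2, Tnfrsf1a and Tnfrsf1b, against 7.14% of all windows. The interferon-stimulated response element (ISRE) stood only in Tnfrsf1b among them, against 3.05% of all windows. The GATA letters AGATAA were found in Il1rl1 and Il6ra, and the RUNX letters TGTGGT in Il21r and Il2rg, against 10.2% and 14.2% of all windows. The AP-1 letters TGANTCA were in none of the 32, against 6.85% of all windows. A match of letters is a description and no evidence of binding. Csf1r, Csf2rb, Il10ra, Il10rb, Il17ra, Il27ra, Tgfbr3 and Insr had no window.

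Receptor levels were compared between genes as FPKM, which divides by gene length, and spanned from abundant to nearly unmeasured transcripts. Il2rg, the common gamma chain shared by the receptors of IL-2, IL-4, IL-7, IL-15 and IL-21, was the most abundant at 89.8 ± 1.54 FPKM in Ctrl and 140 ± 1.71 FPKM after l-FA (SD, n = 3). Csf3r, the G-CSF receptor, followed with 78.3 ± 0.844 and 69.4 ± 0.729 FPKM, and then came Ifngr1, Il17ra and Tnfrsf1b. The next in order were Ifnar2 (mean of all 6 libraries 32.0 FPKM), Tnfrsf1a (25.5 FPKM), Il11ra1 (21.5 FPKM) and Il4ra (20.3 FPKM). Partner chains differed widely in level. Il4ra stood at 20.3 FPKM over all libraries and its type II partner Il13ra1 at 0.190 FPKM. In the same way the shared chain Il6st had 2.77 FPKM beside 0.208 FPKM for its partner Lifr and 0.00292 FPKM for its partner Osmr.

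**Figure D1:**
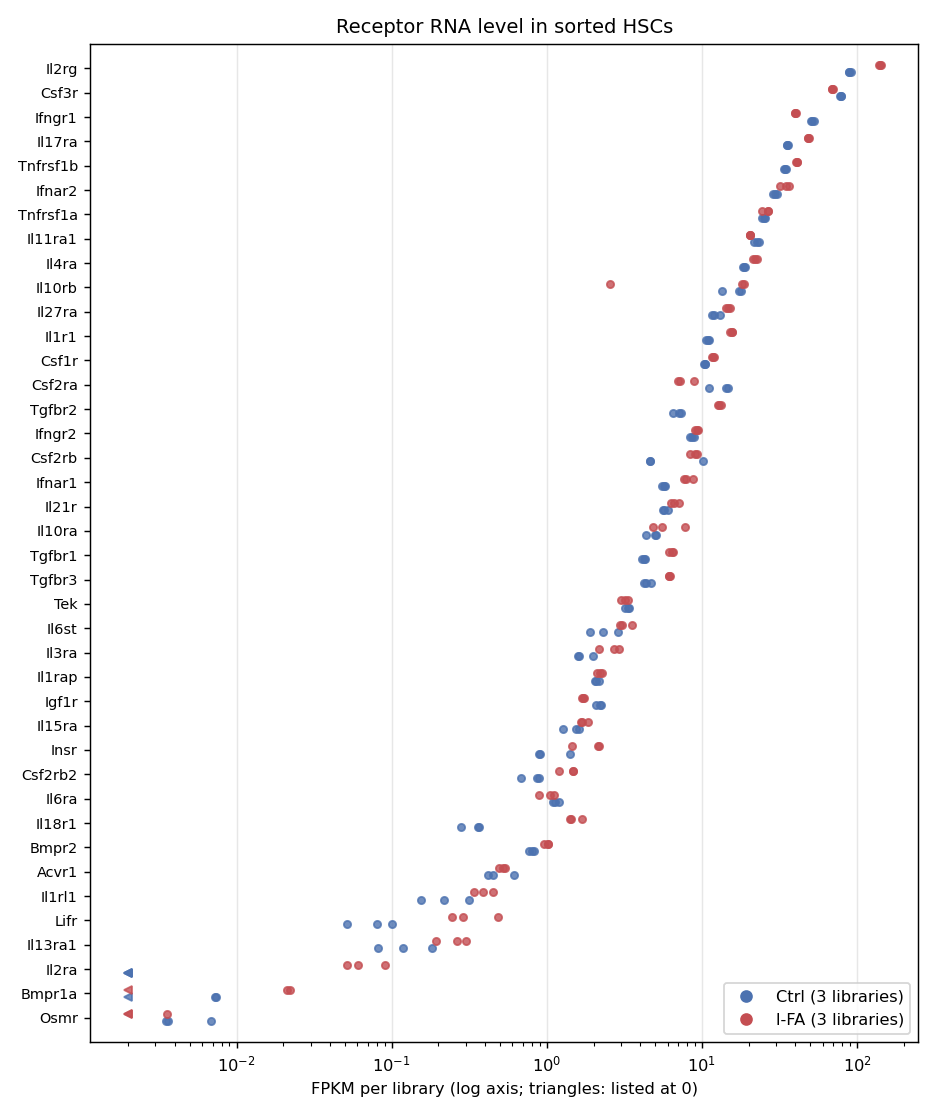
Level of each of the 40 receptor genes, in FPKM on a log axis, with 1 point for each of the 3 Ctrl and 3 l-FA libraries, genes ordered by their mean and values of 0 drawn as triangles at the left edge. Il2rg and Csf3r lie at the top of the range, and Osmr, Bmpr1a and Il2ra at the bottom.

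Differences between the groups were tested on counts with the quasi-likelihood test of edgeR after TMM normalization, and a gene was called when its Benjamini-Hochberg adjusted p over the 16520 genes tested was under 0.05. Log2 fold changes are given with their standard error (SE). Of the 40 receptor genes, 37 passed the filter on low counts. Among them 17 were higher in l-FA (45.9%), where 25.5% of all genes tested were, and 5 were lower (13.5%), where 25% of all genes tested were. In either direction 22 were called (59.5%), against 50.5% of all genes tested, and the groups did not overlap for 25 (67.6%), against 60.3%. Of these, 18 had every l-FA library above Ctrl, against 30.4% of all genes tested, and 7 had every l-FA library below, against 29.9%. Of the 37, Il18r1 and Lifr (2 genes) also passed the 2-fold limit of the study's methods upward (5.41%), against 6.68% of all genes tested, and none passed it downward, against 5.1%. The median log2 fold change of the 37 was 0.21, with 26 above 0, and that of all genes tested was 0.00. Scaling by total counts in place of TMM made 61.6% of all calls higher, against 50.4%, and gave 21 receptor genes higher and 5 lower.

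By class, the receptor genes for TGF-beta and BMPs had 4 of 5 tested members higher and none lower, with a median log2 fold change of 0.40. Those for interleukins had 8 of 18 higher and 1 lower (median 0.31). The CSF receptors were divided, with 2 higher and 2 lower of 5, as were the interferon receptors with 1 higher and 1 lower of 4, and the angiopoietin and insulin family with 1 higher and 1 lower of 3. Of the 2 TNF receptors, 1 was higher. Over all genes tested, 25.5% were higher and 25% lower, and 50.5% were called in either direction. The interleukin, interferon and TNF receptor genes were each called at 50%, near that share. Whether a class differed from all genes was not tested.

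**Figure D2:**
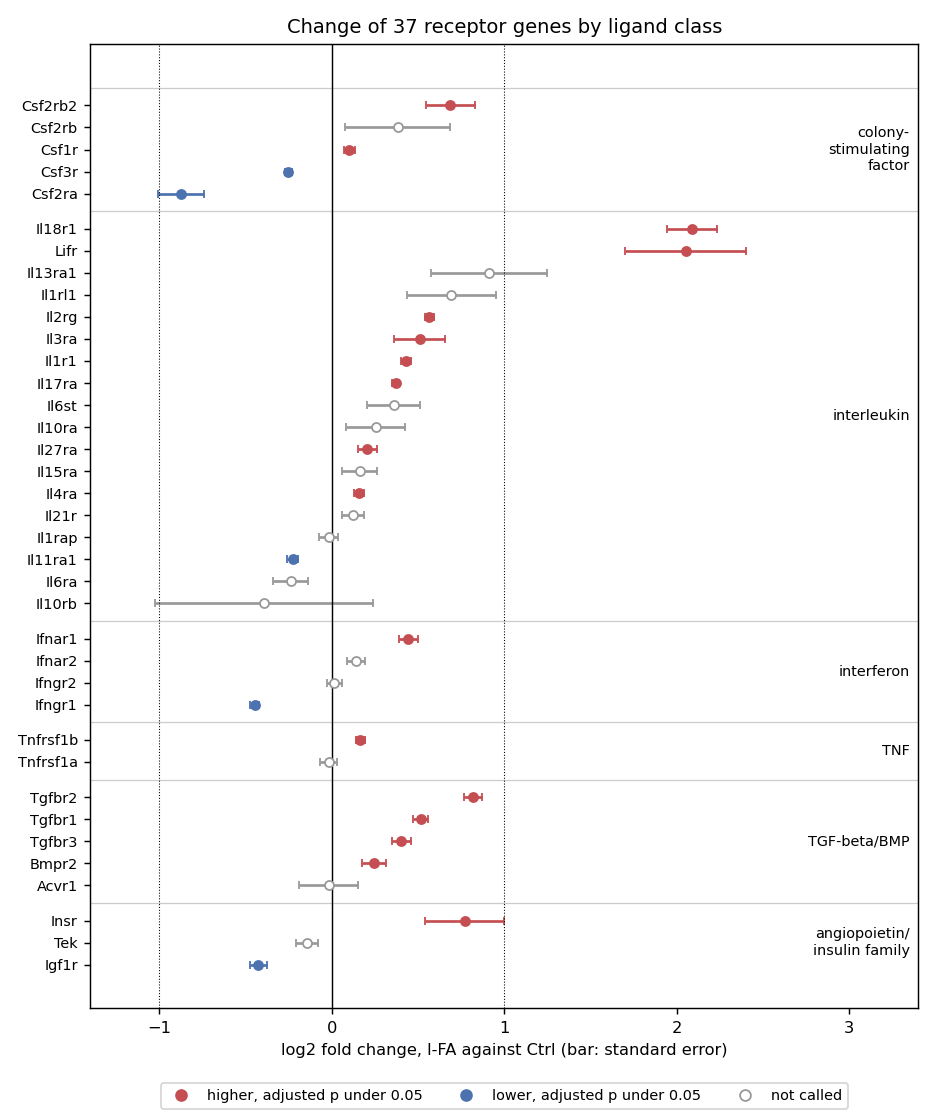
Log2 fold change of l-FA against Ctrl for the 37 receptor genes tested, by ligand class, with bars for the standard error (SE), filled points for genes called at an adjusted p under 0.05 in edgeR, and dotted lines at a 2-fold change. Il18r1 and Lifr lie beyond the 2-fold line upward, and Csf2ra, with a log2 fold change of -0.88, is the lowest of the called genes.

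Among CSF receptors, the ligand-binding chain for GM-CSF and the G-CSF receptor fell, and a beta chain rose. Csf2ra (ENSMUSG00000059326, chromosome 19, 61212395 to 61216867), the alpha chain that binds GM-CSF, had 1799, 1694 and 1400 counts in Ctrl and 1112, 844 and 873 in l-FA. Each l-FA library was below each Ctrl library, and the normalized level went from 84.9 ± 12.8 to 46.2 ± 5.86 CPM (SD, n = 3). Its log2 fold change was -0.88 ± 0.13 (SE), with an edgeR adjusted p of 0.00197 and a range of -1.002, without Ctrl 3, to -0.80 when each library was left out in turn. Csf3r (ENSMUSG00000028859, chromosome 4, 125918343 to 125938233) had 8615, 8232 and 8824 counts in Ctrl and 7895, 7443 and 7433 in l-FA. The libraries of each group were tight, at 444 ± 4.07 and 373 ± 2.56 CPM (SD, n = 3), and the log2 fold change was -0.25 ± 0.019 (SE), with an edgeR adjusted p of 0.000114. Both windows shown above hold GAGGAA on the strand of the gene, that of Csf2ra at 14 and 8 bases upstream of the start and that of Csf3r at 86 bases. The windows of Tgfbr2 and Csf2rb2, which rose, hold these letters too, as do 23.1% of all windows. Csf2ra and Csf3r are also expressed by neutrophils and monocytes, whose summed marker level fell between the same libraries as given above. Csf1r, of the same receptor class, did not fall (log2 fold change 0.10). The part of such cells in these results was not tested.

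The beta chains could be read less firmly. Csf2rb2 (ENSMUSG00000071714, chromosome 15, 78166707 to 78189921), the beta chain that serves the IL-3 receptor of mice, had 129, 99 and 137 counts in Ctrl and 183, 217 and 218 in l-FA. The groups did not overlap, at 6.30 ± 0.866 and 10.1 ± 1.24 CPM, and the log2 fold change was 0.69 ± 0.14 (SE), with an edgeR adjusted p of 0.00724. Csf2rb (ENSMUSG00000071713, chromosome 15, 78209952 to 78238047), the common beta chain of the receptors for GM-CSF, IL-3 and IL-5, had 1014, 991 and 2297 counts in Ctrl and 2107, 1815 and 1952 in l-FA. Ctrl 3 stood above every other library, and the difference did not pass the test (log2 fold change 0.38 ± 0.30 SE, adjusted p = 0.339). Without Ctrl 3, the log2 fold change was 0.85 and passed (adjusted p = 0.000435 from edgeR). These genes are near-identical copies that lie 20030 bases apart, and how reads were divided between them is not known, so both values are uncertain. Il3ra, the alpha chain that binds IL-3, rose from 142, 141 and 183 counts to 200, 258 and 239 (log2 fold change 0.51 ± 0.15 SE, adjusted p = 0.026), a call that was lost without Ctrl 1, Ctrl 2, l-FA 2 or l-FA 3, with adjusted p-values from 0.011 to 0.0765 over the 6 omissions. Csf1r, the M-CSF receptor, had 1609, 1540 and 1645 counts in Ctrl and 1832, 1787 and 1807 in l-FA, a log2 fold change of 0.10 with an adjusted p of 0.0363. That call was lost in DESeq2 (adjusted p = 0.051), with no low-count filter (0.059) and without any library other than l-FA 1, with adjusted p-values up to 0.0942 when a library was left out. It overlaps the listed genes Hmgxb3 and Mir6983.

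In the IL-1 family, the IL-18 receptor chain showed the largest rise of all 37 receptor genes. Il18r1 (ENSMUSG00000026070, chromosome 1, 40504712 to 40540014), the chain that binds IL-18, had 34, 43 and 46 counts in Ctrl and 180, 170 and 203 in l-FA. Every l-FA library thus held several times the counts of any Ctrl library, and the level went from 2.13 ± 0.309 to 9.07 ± 0.948 CPM (SD, n = 3), or 4.25-fold. Its log2 fold change was 2.09 ± 0.15 (SE), with an edgeR adjusted p of 9.28e-05, and it ranged from 1.97 to 2.15 with a library omitted. Il18rap, the accessory chain that completes the IL-18 receptor and lies 14507 bases from Il18r1, is not among the 40 genes. It went from 735, 726 and 789 counts to 1856, 1836 and 1807 (log2 fold change 1.21 ± 0.036 SE, adjusted p = 4.59e-06), and the gene of the ligand, Il18, from 202, 199 and 213 to 332, 324 and 318 (0.59 ± 0.062 SE, adjusted p = 0.000436). Both receptor chains and the ligand were therefore higher in every l-FA library than in any Ctrl library, as were 30.4% of all genes tested.

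Il1r1, the signaling receptor for IL-1, rose from 2073, 2072 and 2210 counts to 3050, 3009 and 2969 (log2 fold change 0.43 ± 0.029 SE, adjusted p = 8.1e-05). Il1r1 overlaps the listed gene Gm38070. Its co-receptor Il1rap did not pass the test (log2 fold change -0.02 ± 0.055 SE, adjusted p = 0.791). Il1rl1, the IL-33 receptor, which lies 136 bases from Il18r1, had 34, 67 and 49 counts in Ctrl and 87, 97 and 73 in l-FA. Its groups did not overlap, but the difference missed the threshold (log2 fold change 0.69 ± 0.26 SE, adjusted p = 0.0646) and passed it without Ctrl 2 (0.99, adjusted p = 0.0139) and by DESeq2 (adjusted p = 0.0279). Without any other single library it did not pass (edgeR adjusted p up to 0.16). Il17ra, the shared chain of IL-17 receptors, rose from 8311, 7966 and 8367 counts to 11523, 10968 and 11164, or from 427 ± 6.57 to 552 ± 6.52 CPM (log2 fold change 0.37 ± 0.021 SE, adjusted p = 4.12e-05).

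Of the 40 genes, those of receptors that use the common gamma chain include Il2rg itself and Il4ra, which rose, and Il15ra and Il21r, which did not pass the test. Il2rg (ENSMUSG00000031304, chromosome X, 100307984 to 100311861) had 6375, 6418 and 6595 counts in Ctrl and 10351, 10120 and 9844 in l-FA. The groups were far apart relative to their spread, at 336 ± 7.16 and 497 ± 6.74 CPM (SD, n = 3), and the log2 fold change was 0.57 ± 0.024 (SE), with an edgeR adjusted p of 1.58e-05. Il4ra, the alpha chain for IL-4 and IL-13, rose by a log2 fold change of 0.16 ± 0.030 (SE, adjusted p = 0.00494) and overlaps the listed gene Gm44876. Il15ra and Il21r had log2 fold changes of 0.16 and 0.12 that did not pass the test (adjusted p = 0.24 and 0.15). Il2ra, the high-affinity IL-2 receptor chain also known as CD25, was filtered out with no count in Ctrl and 11, 6 and 7 counts in l-FA, which is at least 2.51-fold higher when Ctrl is set at a floor of 3 counts per library. Il2ra was called higher where no low-count filter was used (edgeR adjusted p = 0.00789) and by DESeq2 (adjusted p = 0.000484). Il13ra1 stood at 6, 13 and 9 counts in Ctrl and 20, 22 and 14 in l-FA and missed the threshold (log2 fold change 0.91 ± 0.34 SE, adjusted p = 0.0615), but passed it without Ctrl 2 (1.24, adjusted p = 0.0329). It did not pass by DESeq2 (adjusted p = 0.115) or without any other single library (edgeR adjusted p up to 0.163).

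Within the family that signals through gp130, the LIF receptor rose while the shared chain did not pass the test. Lifr (ENSMUSG00000054263, chromosome 15, 7120095 to 7226970) had 28, 14 and 23 counts in Ctrl and 70, 80 and 134 in l-FA, or 1.12 ± 0.356 and 4.68 ± 1.79 CPM (SD, n = 3). The groups did not overlap, although l-FA 3 stood well above the other l-FA libraries. Its log2 fold change was 2.05 ± 0.35 (SE), with an edgeR adjusted p of 0.0032, and it ranged from 1.71 to 2.28 with a library omitted. Il6st, which encodes gp130, had 998, 639 and 817 counts in Ctrl and 1256, 1056 and 1010 in l-FA (log2 fold change 0.36 ± 0.15 SE, adjusted p = 0.0939), and passed without Ctrl 1 (0.53, adjusted p = 0.0123) and by DESeq2 (adjusted p = 0.0205). Without any other single library Il6st did not pass (edgeR adjusted p up to 0.218). Il6ra, the IL-6 binding chain, had every l-FA library below Ctrl after normalization but missed the threshold (log2 fold change -0.24 ± 0.10 SE, adjusted p = 0.0937). Il27ra, the receptor chain for IL-27, rose from 1361, 1179 and 1284 counts to 1648, 1530 and 1482 (0.21 ± 0.054 SE, adjusted p = 0.0182), a call lost without Ctrl 2 (adjusted p = 0.0623) or Ctrl 3 (0.0633). Il27ra overlaps the listed gene Palm3. Il11ra1, the IL-11 binding chain, was the only gene called lower among the 18 tested interleukin receptor genes of the receptor list (log2 fold change -0.23 ± 0.031 SE, adjusted p = 0.00126). Il11ra1 overlaps 5 other listed genes, with whose reads its own may be mixed since the use of strand in counting is not known. Osmr, the oncostatin M receptor, had 1, 1 and 2 counts in Ctrl and 0, 1 and 0 in l-FA and was filtered out.

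The IL-10 receptor chains showed no difference that passed the test, and each had a library apart from the rest of its group. Il10ra, the binding chain, had 708, 808 and 840 counts in Ctrl and 1305, 789 and 887 in l-FA (log2 fold change 0.25, adjusted p = 0.26). Il10rb, the chain it shares with the IL-22 and lambda interferon receptors, had 1877, 1775 and 1452 counts in Ctrl and 1938, 1940 and 262 in l-FA. The low value of l-FA 3 alone turned the log2 fold change negative, at -0.39 (SE 0.63, adjusted p = 0.64), and without that library it was 0.11 (adjusted p = 0.553).

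Of the interferon receptors, the type I chain Ifnar1 was higher and the type II chain Ifngr1 lower, and the partner of each did not pass the test. Ifnar1, a chain of the receptor for alpha and beta interferons, had 1160, 1186 and 1233 counts in Ctrl and 1905, 1601 and 1639 in l-FA. The groups did not overlap, at 62.0 ± 1.56 and 84.2 ± 5.75 CPM (SD, n = 3), and the log2 fold change was 0.44 ± 0.056 (SE), with an edgeR adjusted p of 0.000883. Ifnar2, its partner, had 3575, 3575 and 3584 counts in Ctrl and 4550, 4177 and 3798 in l-FA. After normalization the groups overlapped, with Ctrl 2 at 191.6 CPM and l-FA 3 at 190.2 CPM, and the test missed the threshold (log2 fold change 0.14 ± 0.053 SE, adjusted p = 0.0633). Ifnar2 was called without l-FA 3 (0.20, adjusted p = 0.0089) and also by DESeq2 (adjusted p = 0.0125), with upper-quartile scaling (0.0395) and with total-count scaling (0.0128). Without any other single library it was not called (edgeR adjusted p up to 0.192). Ifngr1 (ENSMUSG00000020009, chromosome 10, 19467697 to 19485977), the chain that binds interferon gamma, had 4316, 4015 and 4328 counts in Ctrl and 3360, 3211 and 3233 in l-FA. The l-FA libraries were all under the Ctrl libraries, at 161 ± 1.05 against 219 ± 5.13 CPM (SD, n = 3), and the log2 fold change was -0.45 ± 0.027 (SE), with an edgeR adjusted p of 5.37e-05. Its partner Ifngr2 had a log2 fold change of 0.01 ± 0.044 (SE, adjusted p = 0.829). Ifnar2, Il10rb, Ifnar1 and Ifngr2 lie in this order on chromosome 16, with 574, 59403 and 39630 bases between neighbours, and only Ifnar1 among them was called. Ifnar2 and Il10rb each overlap the listed gene Gm21970.

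Of the TNF receptors, Tnfrsf1b, the TNFR2 gene, rose from 2625, 2600 and 2784 counts to 3284, 3083 and 3121, or from 139 ± 1.60 to 155 ± 1.51 CPM (log2 fold change 0.17 ± 0.026 SE, adjusted p = 0.00204). Tnfrsf1a, the TNFR1 gene with a death domain, had 1863, 1758 and 1967 counts in Ctrl and 1874, 1974 and 1971 in l-FA, and its log2 fold change of -0.02 ± 0.049 (SE, adjusted p = 0.778) was within the spread between libraries. Tnf itself went from 49, 45 and 48 counts to 108, 136 and 118 (log2 fold change 1.27, adjusted p = 0.000476).

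Tgfbr1, Tgfbr2 and Tgfbr3, which encode the TGF-beta receptors, rose together. Tgfbr2 (ENSMUSG00000032440, chromosome 9, 115913361 to 116004428), the type II kinase that binds TGF-beta and starts signaling, had 1424, 1427 and 1347 counts in Ctrl and 2619, 2651 and 2550 in l-FA, or 72.8 ± 4.61 and 128 ± 3.76 CPM (SD, n = 3), a 1.76-fold difference. Its log2 fold change was 0.82 ± 0.053 (SE), with an edgeR adjusted p of 7.14e-05. Tgfbr1, the type I kinase that phosphorylates SMAD2 and SMAD3, went from 746, 756 and 790 counts to 1218, 1104 and 1136, or from 39.7 ± 0.822 to 56.6 ± 1.49 CPM (log2 fold change 0.51 ± 0.042 SE, adjusted p = 0.000161). Every l-FA library of both kinases lay above every Ctrl library. Tgfbr3, the co-receptor betaglycan, went from 668, 707 and 674 counts to 970, 958 and 936 (log2 fold change 0.40 ± 0.055 SE, adjusted p = 0.00123). The calls of Tgfbr1, Tgfbr2 and Tgfbr3 held with each library left out, though Tgfbr3 overlaps 3 other listed genes whose reads may be mixed with its own. Bmpr2, the type II BMP receptor, had 293, 292 and 286 counts in Ctrl and 382, 344 and 365 in l-FA (log2 fold change 0.24 ± 0.068 SE, adjusted p = 0.0229), a call lost without Ctrl 1, Ctrl 3, l-FA 1 or l-FA 3 (adjusted p up to 0.0642). Acvr1, a type I BMP receptor, had a log2 fold change of -0.02 ± 0.17 (SE, adjusted p = 0.934), and Bmpr1a, another type I receptor, was filtered out with 1, 1 and 0 counts in Ctrl and 3, 0 and 3 in l-FA.

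Among the receptor tyrosine kinases, Igf1r and Insr, which encode related receptors, were called in opposite directions, Insr less firmly. Igf1r, the IGF-1 receptor, fell from 777, 803 and 865 counts to 658, 644 and 620, or from 42.3 ± 1.59 to 31.5 ± 0.551 CPM (log2 fold change -0.43 ± 0.049 SE, adjusted p = 0.000585). Insr, the insulin receptor, had 423, 260 and 282 counts in Ctrl and 670, 434 and 637 in l-FA, or 16.7 ± 4.62 and 28.5 ± 5.92 CPM. Insr overlaps the listed gene Vmn2r-ps88. It was called higher (log2 fold change 0.77 ± 0.23 SE, adjusted p = 0.0303), but Ctrl 1 and l-FA 2 were at nearly the same count, its normalized levels overlapped between the groups, and the call was lost without Ctrl 2, Ctrl 3, l-FA 1 or l-FA 3 (adjusted p up to 0.093). Tek, which encodes the angiopoietin receptor TIE2, had 480, 493 and 513 counts in Ctrl and 461, 469 and 491 in l-FA. After normalization every l-FA library of Tek lay below Ctrl, but the difference did not pass the test (log2 fold change -0.14 ± 0.063 SE, adjusted p = 0.105). Its ligand gene Angpt1 was higher in l-FA, at 8966, 8799 and 8630 counts against 6582, 6144 and 6585 (log2 fold change 0.37 ± 0.025 SE, adjusted p = 7.56e-05).

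**Figure D3:**
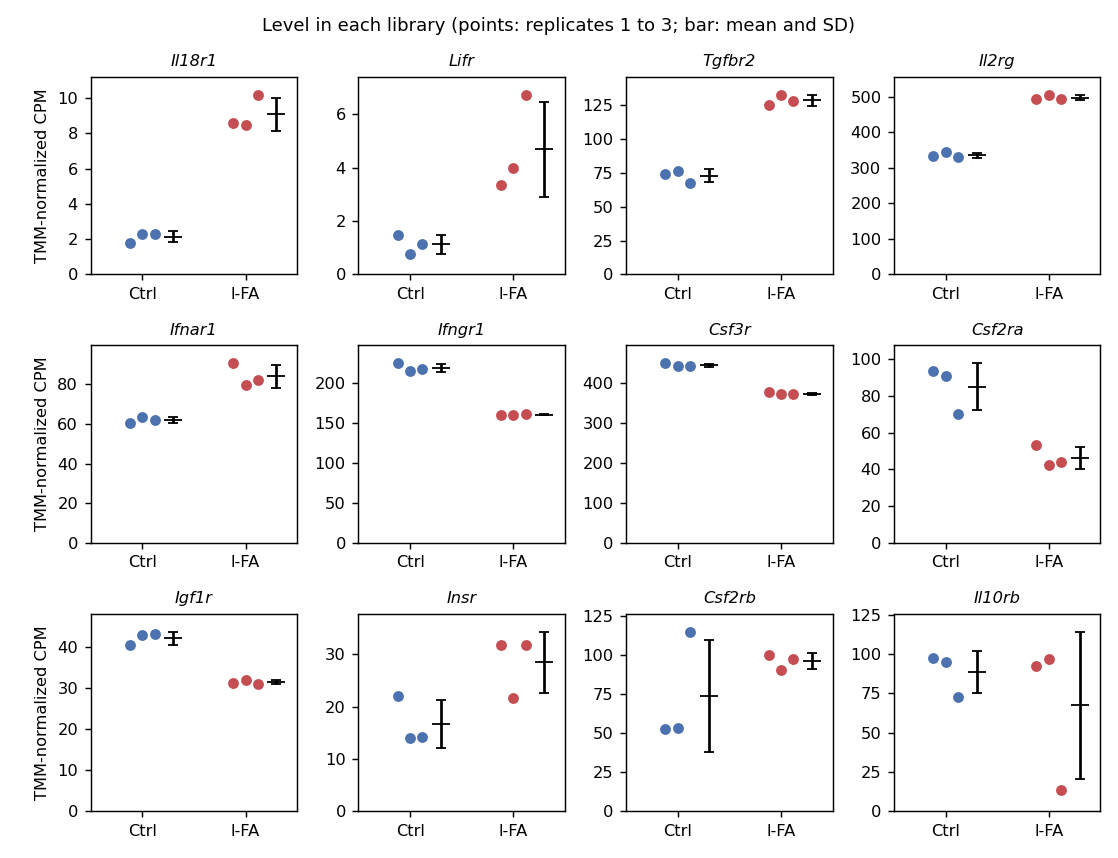
TMM-normalized CPM of 12 receptor genes in each library, with points for the 3 Ctrl and 3 l-FA libraries and bars for mean and SD. The groups are apart for the first 9 genes, overlap for Insr, and hold a library far from the others for Csf2rb in Ctrl and Il10rb in l-FA.

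Libraries of a group differed little for most receptor genes. Over the 33 receptor genes with a mean of at least 100 counts, the median coefficient of variation was 3.59% in Ctrl and 4.27% in l-FA, where counting error alone would give a median of 2.90% and 2.95%. The widest were Csf2rb in Ctrl (48.8%) and Il10rb in l-FA (69.8%).

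Other genes of these pathways are given by lists written for this purpose. For comparison, 25.5% of all genes tested were higher and 25% lower. Of 48 other cytokine and growth factor receptor genes tested, 25 were higher (52.1%) and 7 lower (14.6%), with a median log2 fold change of 0.23. Kit, the stem cell factor receptor, had a log2 fold change of 0.12 (adjusted p = 0.00238). Among the largest were Tyro3, a TAM receptor kinase, with 2, 6 and 2 counts in Ctrl and 124, 119 and 112 in l-FA, and Met, the HGF receptor, which was lower (log2 fold change -1.27). Of 33 ligand genes tested, 19 were higher (57.6%) and 4 lower (12.1%), with a median of 0.37. Il6 fell from 18, 23 and 13 counts to 7, 9 and 5 (log2 fold change -1.43, adjusted p = 0.0137), while Lif, the ligand of Lifr, chosen after its values were seen, was higher (1.01, adjusted p = 0.012). These ligand RNAs come from the sorted cells, and levels in the marrow fluid were not measured here.

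Genes that act below the receptors were counted in the same way, to be read beside the same shares of all genes. Of 39 genes of JAK-STAT signaling and its inhibitors, 17 were higher (43.6%) and 5 lower (12.8%), with a median log2 fold change of 0.11. Stat2, a factor of the interferon response, rose by a log2 fold change of 1.12 (adjusted p = 3.69e-05), and Socs3, a feedback inhibitor of gp130 and G-CSF signaling, rose by 0.66 (adjusted p = 0.000329). Grb2, an adapter toward Ras, was the strongest fall of the list, from 1539, 1612 and 1660 counts to 918, 953 and 889 (log2 fold change -0.88, adjusted p = 4.11e-05). Jak1 rose by 0.25, and Jak2, a kinase that signals from the beta common chain, had a log2 fold change of -0.24 that did not pass (adjusted p = 0.129). Of 26 SMAD pathway genes tested, 7 were higher (26.9%) and 4 lower (15.4%), so that the share of higher genes stood near the 25.5% of all genes. Id3, a BMP target, rose by 1.14 (adjusted p = 0.000358), while Id1 and Id2, of the same family and named after their values were seen, had 0.32 and 0.14 and did not pass (adjusted p = 0.307 and 0.129). The 4 lower genes were Ltbp4 (-0.85), Ltbp3 (-0.55), the inhibitory Smad6 (-0.53, adjusted p = 0.0424) and, named after its values were seen, Strap (-0.36), and the inhibitor Smad7 had 0.04 (adjusted p = 0.846). Of 29 adapters of TNF and IL-1 receptors, 11 were higher (37.9%) and 4 lower (13.8%), with Birc2 and Tnfaip3 among the former and Irak1 and Map3k7 among the latter. Of 20 genes of insulin and TIE2 signaling, 5 were higher (25%) and 6 lower (30%), near the 25.5% and 25% of all genes tested. Pik3ca, a catalytic subunit of PI3 kinase, fell by 1.44 on the log2 scale.

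**Figure D4:**
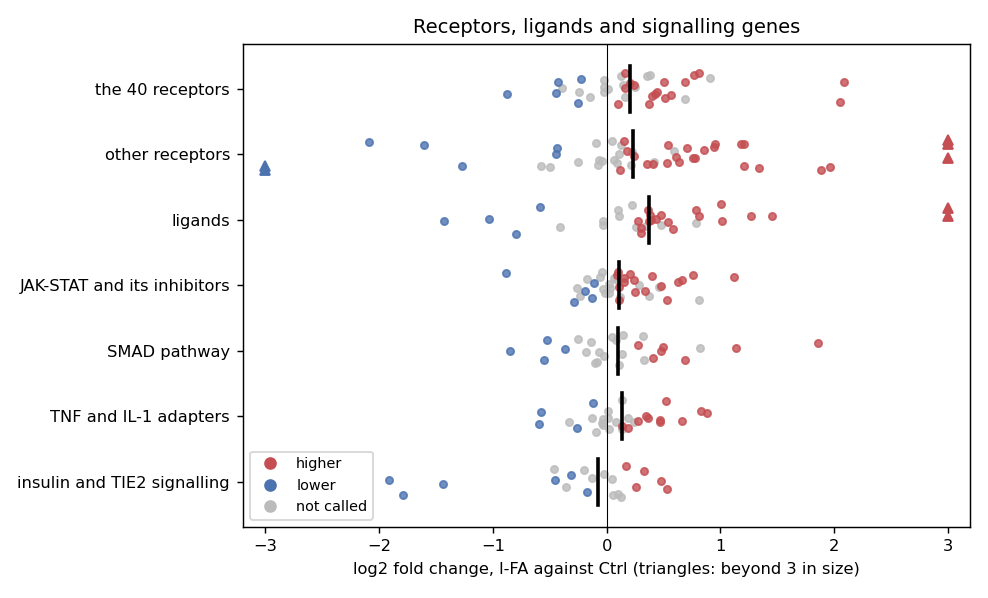
Log2 fold change of l-FA against Ctrl for each tested gene of the 40 receptor genes and 6 related lists, with 1 point per gene colored by its edgeR call, a black bar at the median of each list, and triangles for genes beyond 3 in size. The medians lie at 0.21 for the receptor genes, 0.37 for ligands and -0.08 for insulin and TIE2 signaling.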

How the data were processed

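RNA of sorted HSCs was measured in 3 Ctrl and 3 l-FA libraries (SMART-Seq HT amplification, KAPA Hyper Prep, NovaSeq). Raw counts per gene and FPKM values were deposited by the authors. The submitters' processing notes name GRCm39, HISAT2, SAMtools 1.3.1, StringTie and edgeR; the counting tool, strand setting and annotation release are not given in the sources used here. Gene coordinates are those of the deposited table. Treatment, dose and age come from the paper's methods.

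The test was edgeR's quasi-likelihood F test (version 4.0.16, R 4.3.3, with TMM factors and filterByExpr), with Benjamini-Hochberg adjustment over 16520 genes kept of 27198. A standard error (SE) was obtained from the log2 fold change and the F statistic, as size over root F. The code was tested on simulated data. CPM are TMM-normalized, and deposited FPKM were used only to compare levels between genes. The members, gene lists and tests were chosen with earlier results of these data known. Values were given in full for members past a 2-fold change and the 2 members of each class with the smallest adjusted p, and other lists by up to 6 genes with the largest called change and a mean of at least 50 counts, plus fixed partner genes, some of which are not reported here. Promoter windows came from RefSeq on GRCm38.p6, matched by symbol for 32 of the 40 genes. Alternatives were DESeq2 1.42.0, RLE, upper-quartile and total-count scaling (the last chosen after seeing the data), other low-count filters, a test against a 1.2-fold change, a replicate block and each library left out. Each library held 19287735 to 20380610 counts. Counts carry no molecular identifiers, so that floors cover counting error only.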

Additional observations from a re-analysis of the deposited data

How the results depend on the processing

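The replicate numbers are shared between the groups, but same-numbered libraries did not deviate together (correlations of 0.019, -0.013 and -0.050). With the replicate block, 18 receptor genes were higher and 5 lower, against 17 and 5 without it: Csf1r and Bmpr2 lost their calls, and Il1rl1, Il6st and Ifnar2 gained one. DESeq2 gave 20 and 5 (Il1rl1, Il6st, Ifnar2 and Il2ra gained, Csf1r lost), RLE scaling 17 and 5, upper-quartile scaling 18 and 5 (Ifnar2 gained), total-count scaling 21 and 5 (Il1rl1, Il13ra1, Il21r and Ifnar2 gained), and at least 10 counts in every library 17 and 5. With no low-count filter the count was again 17 and 5, but Csf1r lost its call and Il2ra gained one, which made 3 receptor genes higher past 2-fold in place of 2, as with DESeq2. Total-count scaling, which moves the median log2 fold change of all genes to 0.08, raised the share of higher calls from 50.4% to 61.6% over all genes and from 77.3% to 80.8% among receptor genes. The test against a 1.2-fold change called 4516 genes in place of 8336, with 10 receptor genes higher and 3 lower. It removed the calls of Csf1r, Csf3r, Il3ra, Il4ra, Il11ra1, Il27ra, Tnfrsf1b, Bmpr2 and Insr.

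In the related lists, that test left 6 higher and 1 lower for JAK-STAT, 4 higher for SMAD, 5 higher and 2 lower for the adapters, 2 higher for insulin and TIE2 signaling, and 2 lower for ligands. Ligands called lower were also 2 with at least 10 counts in every library and with the replicate block. JAK-STAT genes called lower were 3 with DESeq2 and 1 with total-count scaling, and insulin and TIE2 genes called higher were 8 with total-count scaling. With each library left out in turn, receptor genes called higher numbered 14 to 15, those higher past 2-fold 2 to 3 (Insr added without Ctrl 1, Il13ra1 without Ctrl 2), those lower past 2-fold 0 to 1 (Csf2ra without Ctrl 3), ligands called lower 2 to 3, JAK-STAT genes called lower 1 to 5, and insulin and TIE2 genes called higher 3 to 6. In each of these the cause was not tested.

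The log2 fold changes that turned direction were those of genes that were not called. With upper-quartile scaling, Il1rap went to 0.0040, Tnfrsf1a to 0.0052 and Acvr1 to 0.0039, and with total-count scaling to 0.059, 0.060 and 0.059. With each library left out, Il1rap ranged from -0.046 to 0.025, Tnfrsf1a from -0.039 to 0.041, Acvr1 from -0.13 to 0.17, Ifngr2 from -0.020 without Ctrl 3 to 0.046, and Il10rb from -0.74 to 0.11 without l-FA 3. Osmr, Bmpr1a and Il2ra were below the main filter, and changes of Lifr, Il13ra1 and Il1rl1 rest on fewer than 100 counts in most libraries.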

Other observations

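Several receptor and ligand genes outside the 40 had counts in only one of the groups, and were named after their values were seen. Il12b, a subunit of IL-12 and IL-23, had no count in Ctrl and 33, 26 and 28 counts in l-FA, which is at least 9.14-fold higher against a floor of 3 counts per library. Il9r, the IL-9 receptor, had none in Ctrl and 13, 12 and 18 in l-FA (at least 4.54-fold higher), and Ret, the GDNF family receptor kinase, none and 25, 12 and 13 (at least 5.22-fold higher). In the other direction, Tnfrsf8, which encodes CD30 and lies 20266 bases from Tnfrsf1b, had 18, 17 and 16 counts in Ctrl and none in l-FA (at least 6.0-fold lower). These are low levels that few reads support.

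Marker genes of other blood cells moved between the groups as well, where 25.5% of all genes tested were higher and 25% lower. Summed levels of T and NK cell markers were 549 to 570.3 CPM in Ctrl and 309.5 to 319.7 in l-FA, with 1 of the 3 genes tested higher and 2 lower. Only these 3 of 7 listed genes passed the low-count filter, at means of 0.541 to 267 FPKM. The tested B and plasma cell markers below spanned 0.183 to 324 FPKM. Both sums may therefore rest on few genes. Those of megakaryocyte markers were 209.7 to 219.6 and 297 to 304 CPM, with 3 of 6 higher and none lower, and those of mast cell and basophil markers 153 to 159.8 and 216 to 224 CPM, with 4 of 6 higher and none lower. B and plasma cell markers stood at 699 to 771 and 935 to 964 CPM (2 of 5 tested higher), endothelial and stromal markers at 267 to 269 and 345 to 351 CPM (3 of 6 tested higher), and erythroid markers at 73.5 to 76.7 and 79.3 to 81.0 CPM (2 of 8 tested higher, 1 lower). At most 3 counts in every library were found for Slc4a1, a red cell marker, and Pdgfra, a stromal marker. The part of these cells in the receptor results was not tested.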
